A study of Mus musculus with 2 samples.

Results

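Short circular RNAs (circRNAs) were taken as back-splice junctions whose genomic ends lie at most 500 nt apart, counting both end bases, that had at least 1 junction read and a named host gene. Entries with no host gene or with the name of a FANTOM transcript were left out. The rule found 3362 short circRNAs in 2494 host genes, out of 26265 circRNAs with a junction read in either library. Of these, 2426 had reads labelled ISC and 1113 reads labelled non-ISC.

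The study sorted intestinal cells of Lgr5GFP-CreERT2 mice aged 2 months by flow cytometry. Lgr5+ cells, labelled ISC for intestinal stem cells, gave 1 library and Lgr5- cells, labelled non-ISC, gave the other. Both came from the same reporter strain, in which GFP and an inducible Cre recombinase mark the Lgr5 locus, and no treatment is given in the labels. The sort therefore rests on the reporter, and the number of mice behind each library was not given in the sources used here. With 1 library a group there is no replicate check, so intervals below cover counting error only and compare the libraries, not the conditions.

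A circRNA forms when the splice donor at the end of an exon is joined to an acceptor upstream of it, which closes 1 or more exons into a ring without free ends. Most animal circRNAs hold several internal exons, and long flanking introns with sequences that pair across the exon are known to favour the joining. A short genomic span leaves room for 1 exon, for a pair of exons around a small intron, or for a junction that lies on no annotated exon end.

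The junction is the only stretch of sequence that sets a circle apart from its linear transcript, so junctions are given here for the 2 pairs described below, for 3 abundant members with reads in both libraries and for 2 members with reads in 1 library. Each line joins the last 30 bases of the circle, in lower case, to its first 30 bases, in capitals, 5′ to 3′ on the gene's strand. Sequences are from the GENCODE M21 transcripts on GRCm38, and all lie in coding exons. Bcl11b encodes a zinc finger transcription factor needed in T cell development, and it had 2 abundant junctions that share the donor end in their deposited coordinates. Mll1, now called Kmt2a, encodes a histone H3 lysine methyltransferase, and it also had 2 junctions with the same deposited donor end.
Bcl11b, 366 nt, chr12:107989465-107989830, minus strand: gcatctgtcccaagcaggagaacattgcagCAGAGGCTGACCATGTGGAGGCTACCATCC
Bcl11b, 363 nt, chr12:107989465-107989827, minus strand: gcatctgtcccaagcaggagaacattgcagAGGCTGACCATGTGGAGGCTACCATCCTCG
Mll1, 488 nt, chr9:44828784-44829271, minus strand: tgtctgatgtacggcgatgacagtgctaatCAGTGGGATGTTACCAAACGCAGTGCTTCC
Mll1, 485 nt, chr9:44828784-44829268, minus strand: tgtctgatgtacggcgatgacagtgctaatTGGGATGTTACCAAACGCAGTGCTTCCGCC
Nudcd3, chr11:6193154-6193476, minus strand: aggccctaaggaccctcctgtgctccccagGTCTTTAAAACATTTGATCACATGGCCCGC
Lrp6, chr6:134541652-134542045, minus strand: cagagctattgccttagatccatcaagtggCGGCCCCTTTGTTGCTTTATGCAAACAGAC
Uhrf1, chr17:56317991-56318384, plus strand: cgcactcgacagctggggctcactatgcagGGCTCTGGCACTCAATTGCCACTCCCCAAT
Prdm16, chr4:154528582-154528931, minus strand: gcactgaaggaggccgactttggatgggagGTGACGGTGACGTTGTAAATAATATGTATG
Ets1, chr9:32738099-32738359, plus strand: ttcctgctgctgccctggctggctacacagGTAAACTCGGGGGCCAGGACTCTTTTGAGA
By the deposited coordinates of both the Bcl11b and the Mll1 pair, the longer form starts with 3 bases, CAG, that the shorter form lacks. These bases end in AG, the dinucleotide that closes an intron at an acceptor site. In Bcl11b the exon also ends in CAG, so 3 bases are identical across the ends of the 363-nt form. Its sequence can also be read as the annotated exon start joined to a donor 3 nt before the exon end. The bases after such a donor are CA, whereas those before the shifted start are AG. Both readings give the same joined sequence, so the junction sequence alone cannot tell which of the 2 ends differs in Bcl11b.

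The coding circle on exon ends with the shortest span was exon 24 of Chd8, a chromatin remodeller, at chr14:52212397-52212486 on the minus strand. It is 90 nt long, and it had 3 junction reads labelled non-ISC and none labelled ISC. Its whole sequence is given because reads of 150 nt are longer than the ring.
Chd8, exon 24: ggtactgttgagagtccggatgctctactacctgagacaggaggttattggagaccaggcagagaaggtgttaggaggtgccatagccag

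In all, 156582 junction reads on 18438 circRNAs were labelled ISC and 76331 on 12202 were labelled non-ISC. Host genes went against the labels over all circRNAs. Of 52 lymphocyte genes, 41 had a circRNA, with 7996 junction reads labelled ISC, 4292 of them in Satb1, and 244 labelled non-ISC. Of 34 epithelium genes, 30 had one, with 83 and 2972 reads, a ratio of 0.0136 (0.0108 to 0.0169). Btnl1 alone had 0 and 2421 of these, and without it 83 and 551 were left, a ratio of 0.0734 (0.0576 to 0.0926). Epcam had 0 and 59. Of 24 genes of the Lgr5 stem cell signature 15 had one, with 64 and 204 reads, and Lgr5 itself had 0 and 7 and Smoc2 0 and 45, whereas Cd44 had 12 and 2 and Znrf3 23 and 12. The libraries are therefore called by their labels, and the part that this makeup has in the results below was not tested. Each ratio divides the share of junction reads in the library labelled ISC by that in the other library, with an exact conditional (Clopper-Pearson) interval at 95%, and shares carry exact binomial intervals.

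Short circRNAs were 13.2% (12.7 to 13.7) of circRNAs in the library labelled ISC and held 9256 junction reads, 5.91% (5.80 to 6.03) of its reads. In the library labelled non-ISC they were 9.12% (8.62 to 9.65) of circRNAs with 3786 reads, 4.96% (4.81 to 5.12). The ratio of these shares of reads was 1.19 (1.15 to 1.24). CircRNAs of over 500 to 1000 nt had a ratio of 0.878 (0.849 to 0.908). Under 2 other scalings the short ratio stayed above 1, and the ratio at over 500 to 1000 nt changed side. With library totals from the deposited RPM values these ratios were 3.36 and 2.47, and with median-ratio scaling 1.47 and 1.08. At the junction reads of the shallower library 1710 short circRNAs would be expected labelled ISC in place of 2426, still above the 1113 labelled non-ISC.

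Nearly all short circRNAs had few reads. The median was 2 junction reads in each library, and 74.3% (72.5 to 76.0) had 1 or 2 reads labelled ISC and 72.2% (69.4 to 74.8) labelled non-ISC. At least 10 reads were reached by 101 members, 4.16% (3.40 to 5.04), and by 57 members, 5.12% (3.90 to 6.59). Among circRNAs of over 500 to 1000 nt these shares were 12.8% (10.97 to 14.8) and 11% (8.88 to 13.4). The span of members ran from 67 to 500 nt with a median of 278 nt. The 3 members with the smallest spans, in Myo18a at 67 nt and in Cdk8 at 71 and 73 nt, had 1, 3 and 1 reads, all labelled non-ISC, and no end on an exon end. Of the members next to the limit, Top2a at 500 nt had 10 reads labelled ISC and Hspa4l at 499 nt had 8, and just outside it Ankhd1 had 8 and Hnrnpul2, at 503 nt, had 4.

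The ends of short circRNAs were set against the exons of GENCODE M21. Both ends lay exactly on exon ends of 1 transcript in 992 of 3362, or 29.5% (28.0 to 31.1), and in 438 of the 837 with at least 3 reads in a library, 52.3% (48.9 to 55.8). Another 1038, 30.9% (29.3 to 32.5), lay inside 1 exon, and 1240, 36.9% (35.3 to 38.5), lay in a gene with no end on an exon end, of which 1082 overlapped no annotated exon. Of the rest, 71 had 1 end on an exon end, 2 joined exon ends of different transcripts and 19 lay outside annotated genes.

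Longer circRNAs had other proportions. Both ends were on exon ends of 1 transcript in 60.9% (58.6 to 63.2) at over 500 to 1000 nt, in 81.9% (80.9 to 82.8) at over 1000 to 5000 nt and in 82.2% (81.6 to 82.9) over 5000 nt. With at least 3 reads in a library these shares were 79.6% (76.4 to 82.5), 89.5% (88.4 to 90.5) and 88.0% (87.1 to 88.8). Junctions inside 1 exon made up 30.9% of short circRNAs and, in these bins in turn, 10.5% (9.05 to 11.99), 0.978% (0.761 to 1.24) and 0.0314% (0.00856 to 0.0804). A span limit by itself bounds how many exons can fit, so these shares describe the classes and do not compare like with like.

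**Figure D1:**
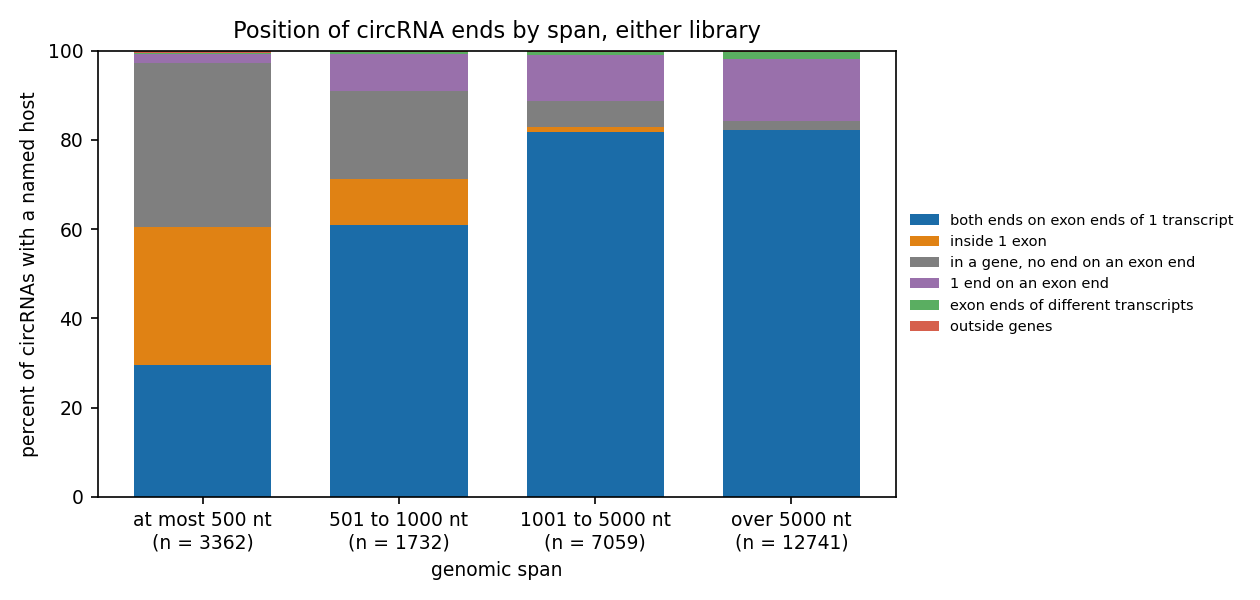
Percent of circRNAs with a named host, stacked by the position of their ends against annotated exons (vertical axis), in 4 bins of genomic span (horizontal axis), for circRNAs with a junction read in either library. The share on exon ends of 1 transcript is 29.5% at most 500 nt and 82.2% over 5000 nt, and the share inside 1 exon goes the other way.

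The classes differed more in reads than in number. Members on exon ends of 1 transcript held 5362 junction reads, 57.9% (56.9 to 58.9) of short reads, labelled ISC and 2438, 64.4% (62.9 to 65.9), labelled non-ISC. They were 93 of the 101 and 53 of the 57 members with at least 10 reads. Of 23 members with 50 or more reads in all, 21 were on exon ends; the others were the 363-nt form of Bcl11b, inside exon 2, and a junction in Rps6ka5. The ratio of read shares was 1.07 (1.02 to 1.13) for exon ends, 1.55 (1.42 to 1.70) inside 1 exon and 1.28 (1.17 to 1.40) in a gene with no exon end. Single Bcl11b entries weigh on the ratios for exon ends and inside 1 exon. The 366-nt form held 570 of 5362 exon-end reads labelled ISC and 70 of 2438 labelled non-ISC. The 363-nt form held 329 of 1910 and 18 of 600 reads inside 1 exon. By these counts the exon-end ratio does not stay above 1 without the 366-nt form. The ratio inside 1 exon does stay above 1 without the 363-nt form. Intervals without these entries were not computed, so the ratios are not read as shifts of a whole class.

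Exonic short circles were small and internal. Of the 992, 557 held 1 exon, 56.2% (53.0 to 59.3), 419 held 2 and 16 held 3. Coding sequence alone made up 856, 86.3% (84.0 to 88.4), while 108 ran from coding into UTR, 18 were UTR and 10 lay in noncoding transcripts. Internal exons made up 990 of them, 2 began at exon 1 of the transcript used, and none used a last exon. Among 447 coding circles of 1 exon, 197 had a length that was a multiple of 3, 44.1% (39.4 to 48.8), against 40.9% (40.7 to 41.2) of annotated internal coding exons of at most 500 nt, so the interval held the background.

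Exon 2 was used often. It made up 164 of the 557 circles of 1 exon, 29.4% (25.7 to 33.4), against 7.42% (6.86 to 8.003) of all internal exons of at most 500 nt in the same genes and 11.9% (11.8 to 12.1) over all genes. Such use was not particular to short circRNAs. Of all exonic short circles, 22.4% (19.8 to 25.1) started at exon 2. The share was 18.6% (16.3 to 21.1) at over 500 to 1000 nt, 20.6% (19.5 to 21.6) at over 1000 to 5000 nt and 31.0% (30.1 to 31.9) over 5000 nt. Circles that start at exon 2 held 38.3% (37.0 to 39.6) of exonic short reads labelled ISC and 37.7% (35.8 to 39.7) labelled non-ISC. The circularised exons were long for internal exons, with a median of 242 nt against 132 nt in the same genes. Their flanking introns had medians of 3259 nt upstream and 3271 nt downstream, against 1409 and 1310 nt. These are medians over exons with shared genes, and no test was made on them.

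Circles of 2 exons had another layout. The intron between their exons had a median of 112 nt, which the span limit forces to be small, and their flanking introns had medians of 1260 nt upstream and 1198 nt downstream. Mau2, whose product loads cohesin onto DNA, had the smallest spliced circle of this kind, 84 nt over exons 2 and 3.

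**Figure D2:**
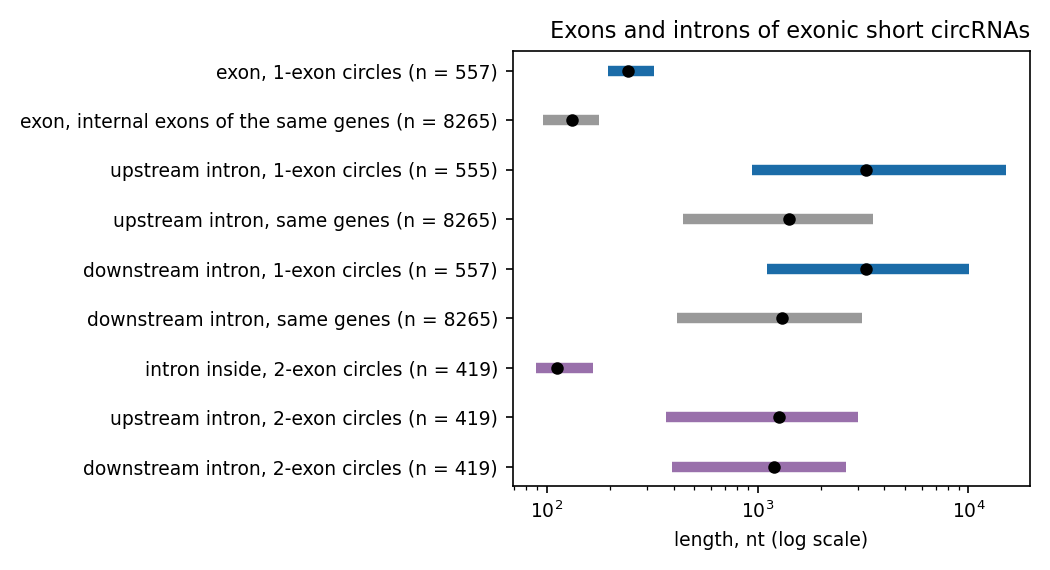
Lengths in nt on a log axis for exons and flanking introns of exonic short circRNAs, with the median as a point and the interquartile range as a bar, beside internal exons of at most 500 nt in the same genes. The exon and flanking introns of circles of 1 exon lie to the right of the same genes' values, at medians of 242 against 132 nt for the exon.

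Bcl11b exon 2, the 366-nt form, was the most abundant short circRNA in the library labelled ISC. It had 570 junction reads labelled ISC and 70 labelled non-ISC, a ratio of 3.97 (3.09 to 5.16), and was called higher. The 363-nt form had 329 and 18 reads, a ratio of 8.91 (5.55 to 15.2), and was also called higher. A call needed 10 or more reads summed over the libraries, a ratio of 2 or more either way and an interval that excludes 1. The longer form took 63.4% (60.2 to 66.6) of the pair's reads labelled ISC and 79.6% (69.6 to 87.4) labelled non-ISC, intervals that do not overlap. The pair held 899 of the 1013 circular junction reads of Bcl11b in the library labelled ISC, and the exon lies between introns of 13255 and 23577 nt.

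Mll1 had 116 and 44 reads on the 488-nt form, a ratio of 1.29 (0.901 to 1.86), over exons 19 and 20. The 485-nt form had 33 and 8 reads, and the longer form's share was 77.9% (70.3 to 84.2) labelled ISC and 84.6% (71.9 to 93.1) labelled non-ISC, intervals that overlap. In Klhl8, which encodes a kelch-like protein, forms of 384 and 381 nt had 25 and 9 reads and 8 and 0 reads. In all, 15 pairs of members shared one end with the other ends at most 10 nt apart, and 5 of these pairs differed by 3 nt. Emg1, a ribosome biogenesis factor, had a form of 499 nt with 17 reads labelled non-ISC and none labelled ISC, and a form 2 nt shorter with 4 reads labelled ISC and none labelled non-ISC. Reads of 1 locus can thus stand under different entries in the 2 files.

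Several abundant members had reads in both libraries and were called neither way. Ttll3, a tubulin ligase family member, had 166 and 73 reads on exon 11, a ratio of 1.11 (0.837 to 1.48). Lrp6, a co-receptor for Wnt ligands, had 148 and 102 reads on exon 2, the most of any member labelled non-ISC, with a ratio of 0.707 (0.546 to 0.919). Nudcd3 had 188 and 49 reads on exon 2, a ratio of 1.87 (1.36 to 2.62). Uhrf1, which helps to maintain DNA methylation, had 145 and 36 reads over exons 12 and 13, a ratio of 1.96 (1.36 to 2.91). Eef2k, the kinase of elongation factor 2, had 131 and 40, a ratio of 1.60 (1.11 to 2.34). The intervals of the last 4 excluded 1, but none of these ratios reached 2 either way. This depends on the scaling. With median-ratio scaling Nudcd3 was at 2.30 and Uhrf1 at 2.42, while Eef2k was at 1.97, Ttll3 at 1.365 and Lrp6 at 0.871. With library totals from RPM they were at 5.27, 5.53, 4.50, 3.12 and 1.99 in the same order.

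Gatad2b, a subunit of the NuRD complex, had 113 and 28 reads, a ratio of 1.97 (1.29 to 3.09), on an exon that is exon 1 of the transcript used. Hirip3 had 33 and 27 reads, a ratio of 0.596 (0.347 to 1.03). Both were called neither way, though with median-ratio scaling Gatad2b was at 2.42 and Hirip3 at 0.733. Rere, a nuclear receptor corepressor, was called higher with 217 and 38 reads on exon 2, a ratio of 2.78 (1.97 to 4.04).

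Enough reads for a call were found on 147 members. Higher in the library labelled ISC were 44, 29.9% (22.7 to 38.0), where 32.4% of all 3659 circRNAs with enough reads were called higher. Lower were 35, 23.8% (17.2 to 31.5), where 23.0% of all were. The median log2 ratio, with 0.5 read added, was 0.31 for these members and 0.34 for all. The share of members called in each direction was near the background. Of the calls, 30 of the higher and 17 of the lower had no reads in the other library. Over all circRNAs these were 789 of 1187 and 328 of 841. Among the 100 members with at least 10 reads and reads in both, 14 were higher, 14% (7.87 to 22.4), and 18 lower, 18% (11.03 to 26.95). Over all circRNAs with reads in both, 15.7% (14.3 to 17.1) were higher and 20.2% (18.6 to 21.8) lower. With library totals taken from the deposited RPM values every ratio is 2.82 times as large, and 84 members were called higher and 22 lower in place of 44 and 35. Under that scaling Lrp6 moved to 1.99, Hirip3 to 1.68 and Clk1 to 1.23, from below 1 to above it.

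**Figure D3:**
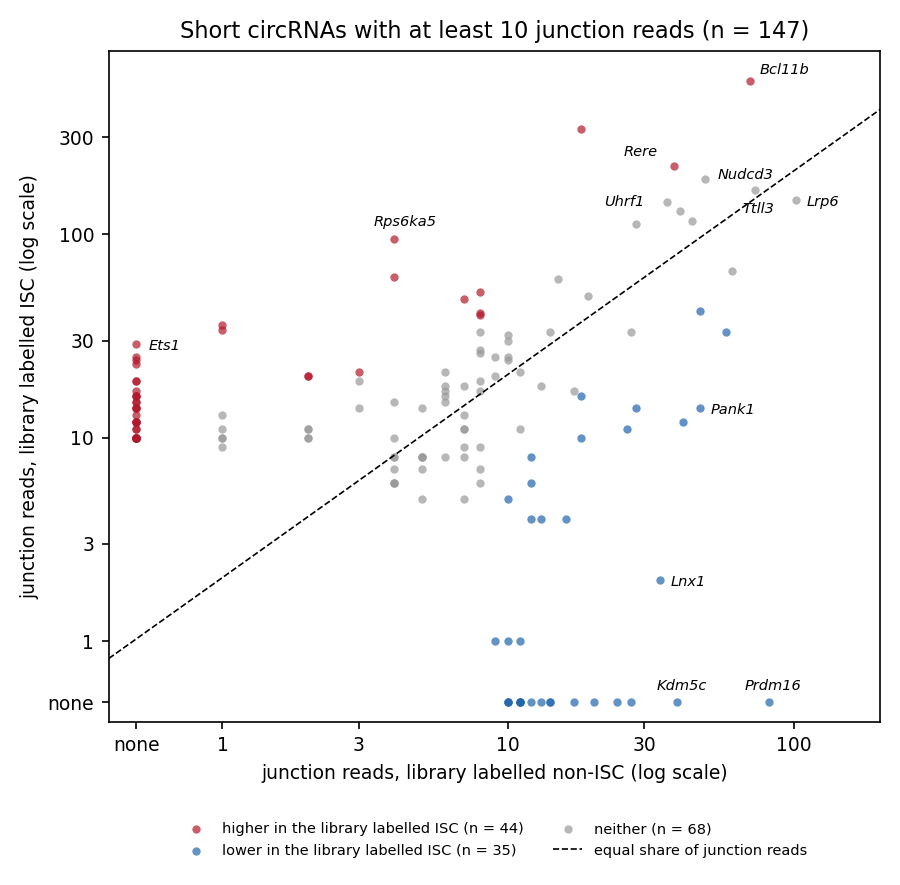
Junction reads of the 147 short circRNAs with 10 or more reads in all, labelled ISC (vertical, log scale) against labelled non-ISC (horizontal, log scale), with members without reads in a library placed at "none" and the dashed line at equal shares of junction reads. The 366-nt form of Bcl11b stands at the top with 570 and 70 reads, and Prdm16 at the lower right with none and 82.

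Members called higher included 5 of the lymphocyte list, 2 of them the forms of Bcl11b. Of all circRNAs with enough reads, 32.4% were called higher. Rps6ka5, a nuclear kinase downstream of MAP kinases, had 95 and 4 reads, a ratio of 11.6 (4.38 to 43.4), with 1 end on an exon end and the other 224 nt from the nearest. Elf4, an ETS family factor, had 62 and 4 reads on exon 8, a ratio of 7.56 (2.81 to 28.6). Mau2 had 34 and 1 and Ldlrad4, an inhibitor of TGF-beta signalling, 36 and 1.

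Members with reads in the library labelled ISC only cannot be given a fold, since a missing entry need not be 0 reads. Ets1, a founding ETS factor, had 29 reads on exon 6, where the library held 203 circular reads of the gene and the other library none. Themis, a T cell development gene, had 25 reads on exon 3, with 784 and 2 reads over all its circRNAs. Qars, a glutaminyl-tRNA synthetase, had 24 reads over exons 8 to 10. Ankrd44 had 23 reads on a junction of 348 nt with no end on an exon end. Of the 30 such members, 17 had hosts with other reads labelled non-ISC and 13 had none, and 2 were listed there with a count but no junction read. The same split was not made over all circRNAs, so it is not read as particular to short ones.

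Members called lower were led in reads by hosts of different kinds. Chsy1, a chondroitin synthase, had 33 and 58 reads on exon 2, a ratio of 0.277 (0.175 to 0.433). Clk1, a kinase of splicing factors, had 42 and 47 reads over exons 6 and 7, a ratio of 0.436 (0.280 to 0.675). Pank1, a pantothenate kinase of coenzyme A synthesis, had 14 and 47 reads on exon 2, a ratio of 0.145 (0.0738 to 0.268). Lnx1, a ubiquitin ligase that binds Numb, had 2 and 34 reads on exon 2, a ratio of 0.0287 (0.00334 to 0.112).

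Prdm16, a zinc finger regulator of transcription, had 82 reads labelled non-ISC on exon 2 and no entry labelled ISC, where the gene had no circular read at all. Kdm5c, a histone demethylase, had 39 reads on a junction over exons 10 and 11, while the library labelled ISC had 28 reads on other circRNAs of the gene. Prc1, a crosslinker of the spindle midzone, had 27, with 28 reads of the gene on other junctions labelled ISC. Ctnnd1, or p120 catenin, had 24 and Cdhr2, a protocadherin of the brush border, 20, and neither gene had a read labelled ISC. Trip6 with 14 and Slc28a1, a nucleoside transporter, with 13 were the same in this. Atl2, a shaper of endoplasmic reticulum, had 14, with 28 reads of the gene labelled ISC. Of the 17 members of this kind, 9 had hosts with reads labelled ISC and 8 had none, a split that was not made over all circRNAs either.

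Sharing was rare. Reads in both libraries were found for 177 of 3362 members, 5.27% (4.53 to 6.07), against 15.99% (14.3 to 17.8) at over 500 to 1000 nt and 19.95% (19.02 to 20.9) at over 1000 to 5000 nt. The shared members held 43.6% (42.6 to 44.6) of short reads labelled ISC and 43.1% (41.5 to 44.7) labelled non-ISC. Sharing depends on reads, so members were compared within bins of reads over both libraries. With 3 to 9 reads, 10.03% (7.92 to 12.5) of short circRNAs were shared, below 19.6% (16.2 to 23.4) at over 500 to 1000 nt. With 10 to 49 reads it was 62.9% (53.8 to 71.4) and 69.1% (61.7 to 75.9), with intervals that overlap, and with 50 or more 22 of 23 and 50 of 51.

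The position of the ends went with sharing. On exon ends of 1 transcript 159 of 992 were shared, 16.03% (13.8 to 18.5), inside 1 exon 10 of 1038, 0.963% (0.463 to 1.77), and in a gene with no exon end 3 of 1240, 0.242% (0.0499 to 0.705). With 3 to 9 reads these shares were 19.1% (14.95 to 23.9), 2.91% (0.951 to 6.65) and 1.01% (0.122 to 3.58). Exonic circRNAs of over 500 to 1000 nt with 3 to 9 reads were shared in 23.4% (19.2 to 28.1), an interval that overlaps that of the exonic short ones.

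**Figure D4:**
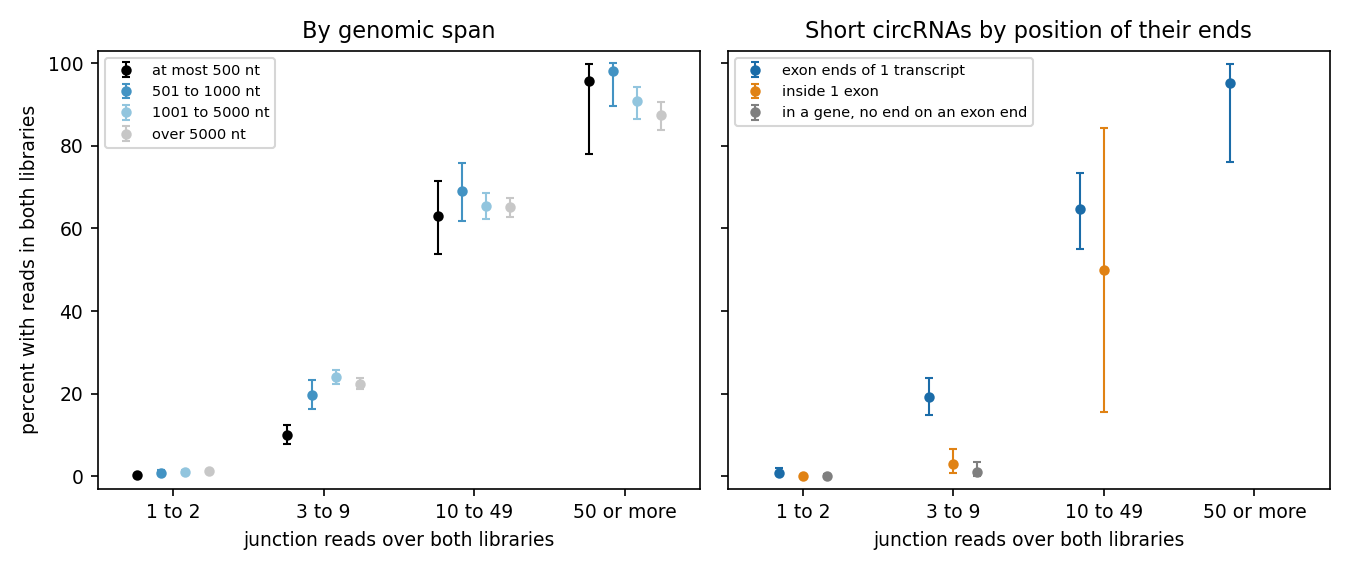
Percent of circRNAs with reads in both libraries (vertical) by junction reads over both libraries (horizontal), by genomic span on the left and, for short circRNAs, by the position of their ends on the right, with exact binomial intervals at 95% as bars; groups under 8 circRNAs are not drawn. With 3 to 9 reads, short circRNAs on exon ends stand at 19.1% and those inside 1 exon at 2.91%.

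Members inside 1 exon lay mostly in last exons. Of 1038, 702 were in a last exon, 115 in the only exon of the transcript used, 165 in an internal and 56 in a first exon. By region, 476 lay in a 3' UTR, 253 in coding sequence, 170 in noncoding transcripts, 128 ran over coding sequence and UTR and 11 lay in a 5' UTR. Apart from the 363-nt form of Bcl11b few had many reads. Tcf7, a T cell factor of the Wnt pathway, had 12 reads labelled ISC on a 194-nt junction in its 3' UTR, and Rn45s, the host name of ribosomal RNA sequence, had 4 and 16. Linker histone genes and Rn45s have close copies in the genome, so the placing of their reads is uncertain.

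The bases next to these ends were read from the transcripts for the 984 members with both ends at least 2 nt inside the exon. A spliceosome joins a donor that follows the circle's end to an acceptor that precedes its start, and the pairs GT-AG, GC-AG and AT-AC were searched there on both strands. All 984 carried one of these 6 pairs, whereas 22 of 966, 2.28% (1.43 to 3.43), did when both ends were moved by 20 nt. AT-AC was the most frequent with 635, 64.5% (61.5 to 67.5), on either strand, then GT-AG with 178, 18.1% (15.7 to 20.6), and GC-AG with 171, 17.4% (15.1 to 19.9). On the gene's own strand were 605, 61.5% (58.4 to 64.5), and the others were on the opposite strand. A match is a description of these bases and does not show a splice site, and which pairs the authors' caller accepts was not given in the sources used here. If the caller requires these pairs, the contrast with moved ends was fixed in advance, so nothing is concluded from it.

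These pairs differed between the libraries. AT-AC on the gene's strand was found in 365 of 720 members labelled ISC, 50.7% (47.0 to 54.4), and in 65 of 269 labelled non-ISC, 24.2% (19.2 to 29.7). AT-AC on the other strand went the opposite way, with 18.3% (15.6 to 21.4) labelled ISC and 27.5% (22.3 to 33.3) labelled non-ISC. GT-AG on the gene's strand was found in 6.81% (5.08 to 8.90) and 10.8% (7.34 to 15.1), intervals that overlap.

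Bases across the ends are given for the coding member with the most reads of 3 kinds, chosen after their values were seen, to show what such ends look like. Each start line holds 12 bases, the 2 bases before the circle in capitals and its first 20 bases, and each end line its last 20 bases, the 2 bases after it in capitals and 12 more. Arhgap20, a GTPase activating protein, had 10 reads labelled ISC on a 180-nt junction in its last exon of 5289 nt, with AT-AC. Epg5 had as many, 10 reads labelled non-ISC, on a coding junction with AT-AC, and its bases are not given. Hist1h1c, a linker histone gene with no intron, had 6 reads labelled ISC on a 198-nt junction with GC-AG. Magi3, a scaffold protein of cell junctions, had 6 reads labelled non-ISC on a 255-nt junction inside exon 10, with AT-AC on the other strand.
Arhgap20 start, chr9:51848792-51848971, plus strand: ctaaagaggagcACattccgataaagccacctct
Arhgap20 end: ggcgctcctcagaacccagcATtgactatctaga
Hist1h1c start, chr13:23739179-23739376, plus strand: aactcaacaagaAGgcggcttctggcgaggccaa
Hist1h1c end: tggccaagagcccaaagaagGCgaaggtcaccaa
Magi3 start, chr3:104050881-104051135, minus strand: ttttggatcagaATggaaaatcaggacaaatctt
Magi3 end: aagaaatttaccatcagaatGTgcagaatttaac

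The sequence at the start often repeated at the end. In 174 of the 984 members at least 5 bases were identical across the ends, so that the junction could be placed at several positions, 17.7% (15.4 to 20.2) against 1.97% (1.19 to 3.06) with the ends moved by 20 nt. The median was 2 identical bases against 0. These contrasts with moved ends carry the same limit as that of the pairs, since the caller's rules are not known. Among members inside coding sequence of 1 exon, the longest repeat was 24 bases in Son, a splicing cofactor with a tandem repeat region, at chr16:91656736-91656885 on the plus strand, with 1 junction read labelled ISC beside a deposited count of 209. Both ends are given with the identical bases in capitals.
Son start: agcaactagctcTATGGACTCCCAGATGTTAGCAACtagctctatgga
Son end: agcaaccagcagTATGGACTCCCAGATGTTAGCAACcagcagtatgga

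Members in a gene with no end on an exon end were mainly intronic. Of the 1082 that overlapped no exon, 33 started where an intron starts or ended where one ends and 12 were whole introns. Fcgbp, a goblet cell mucus protein, had 10 reads labelled non-ISC on such a junction of 253 nt, and Ankrd44, given above, was the most abundant. Intron sequence was not analysed here.

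Most hosts had 1 short circRNA, 1921 of 2494, and 51 hosts with at least 4 held 294. Malat1, a nuclear long noncoding RNA, had 24, all inside its exon, with 39 reads labelled ISC and 5 labelled non-ISC. Hist1h1c had 12, all inside its exon, with 21 and 11 reads. Rag1, the recombinase of antigen receptor genes, had 11, all inside its exon, with 21 reads labelled ISC and none labelled non-ISC. Satb1, a chromatin organiser of thymocytes, had 10 with 27 reads and Tcf7 had 7 with 25, also labelled ISC only. Apob, the apolipoprotein of chylomicrons, had 7 with 12 reads, all labelled non-ISC.

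By gene list, 33 of 52 lymphocyte genes hosted 97 short circRNAs, with 1149 reads labelled ISC and 99 labelled non-ISC. The ratio was 5.66 (4.61 to 7.02), and the members with at least 10 reads, 5, were all called higher, 2 of them the forms of Bcl11b. Over all 3659 circRNAs with enough reads, 32.4% were called higher. Bcl11b held 923 and 89 of these reads, and without it 226 and 10 were left, a ratio of 11.02 (5.88 to 23.3). Of 28 enterocyte genes, 15 hosted 33 short circRNAs, 1 of them labelled ISC and 32 labelled non-ISC, with 4 and 76 reads, a ratio of 0.0257 (0.00682 to 0.0684). Of 34 epithelium genes 10 hosted 12, with 6 and 28 reads, and Cdh1, or E-cadherin, had none and 6 reads over exons 4 and 5. Of 22 goblet, Paneth, endocrine and tuft genes 5 hosted 10, with 6 and 34 reads. The Lgr5 signature had 6 short circRNAs in 4 genes, with 7 and 4 reads, a ratio of 0.853 (0.217 to 3.97), and stroma had 6, with 10 and 1.

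Lists of general cell functions were described in the same way. In cell division and DNA replication 26 short circRNAs had 90 and 11 reads, a ratio of 3.99 (2.13 to 8.27), and the 4 with at least 10 reads were called higher: Cdc27 with 14 reads, Kif23 with 11, and Top2a and Atm with 10 each, all without reads labelled non-ISC. Over all 3659 circRNAs with enough reads, 32.4% were called higher, and 789 of these 1187 had no reads labelled non-ISC. A list of 4 members is too small to set against that share. Chromatin regulators had 83 with 211 and 53 reads, a ratio of 1.94 (1.43 to 2.68). Of these, 3 had at least 10 reads and none was called, among them Ep300, a histone acetyltransferase, with 50 and 19 reads. RNA binding and splicing genes had 47 with 108 and 33 reads, a ratio of 1.60 (1.07 to 2.43). Ubiquitin ligases and deubiquitinases had 45 with 153 and 81, a ratio of 0.921 (0.699 to 1.22). With library totals from RPM the ratios of this list and of the Lgr5 signature became 2.59 and 2.40.

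The deposited count, a second measure per entry whose assignment was not given in the sources used here, behaved unlike junction reads in short circRNAs. It equalled the junction reads in 28.0% (26.2 to 29.8) of short circRNAs labelled ISC and 28.5% (25.8 to 31.2) labelled non-ISC, against 45.6% (44.6 to 46.6) and 55.3% (54.1 to 56.6) over 5000 nt. On exon ends it was equal in 45.7% (42.0 to 49.3) and 50.6% (45.7 to 55.5), inside 1 exon in 20.8% (17.98 to 23.9) and 21.8% (17.2 to 27.0).

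In the library labelled ISC a single entry held most of the count. Short circRNAs held 82.1% of the summed count labelled ISC and 21.2% labelled non-ISC, while exonic short circRNAs held 0.376% and 0.722%. That entry, of 305 nt in Rpph1, the RNA of RNase P, had a count of 8348944 and 3 junction reads, 79.1% of the library's count. In the library labelled non-ISC, an entry of 257 nt in Rpph1 had a count of 490712, 15.6% of the library's count, and 2 junction reads, and 1 in Rmrp, the RNA of RNase MRP, had 68330 and 1. The summed count labelled non-ISC also includes 6122 entries of any span without a junction read, which the rule leaves out. The library labelled ISC had none of these. Among them was a short Rpph1 entry with a count of 803144, so the shares of 82.1% and 21.2% are not like for like. A Hist1h1a entry had 54565 with 2 junction reads and a Malat1 entry 31161 with 2, both labelled ISC. Counts of at least 1000 were found for 31 and 20 short circRNAs, which together held 67 and 43 junction reads.

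**Figure D5:**
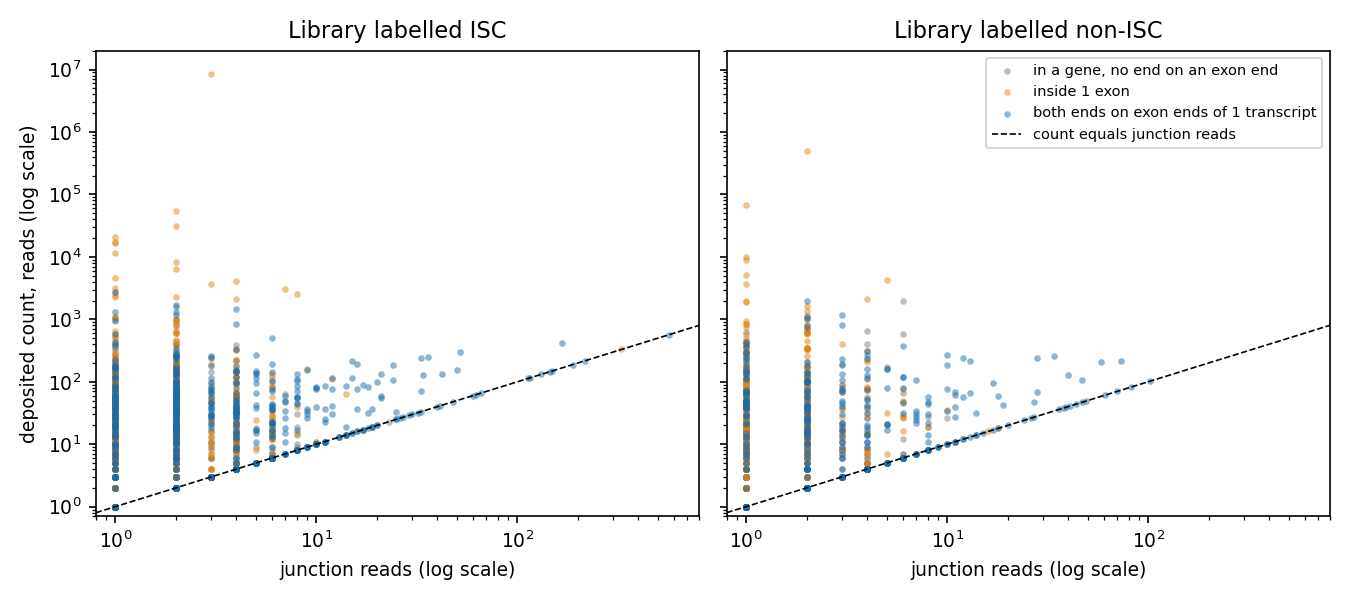
Deposited count (vertical, reads, log scale) against junction reads (horizontal, log scale) for short circRNAs of the library labelled ISC (left) and labelled non-ISC (right), coloured by the position of their ends, with the dashed line where both are equal. Many members on exon ends lie on the line, and the highest points, 8348944 and 490712, are Rpph1 entries with 3 and 2 junction reads.

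Even numbers of junction reads were found for 57.1% (55.1 to 59.1) of short circRNAs labelled ISC and 47.7% (44.7 to 50.7) labelled non-ISC. Paired reads of 150 nt from fragments of about 200 bp overlap, so both mates may span a junction, and whether mates were counted separately was not tested.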

How the data were processed

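Cells of 2 sorted fractions gave 1 library each. Per the labels' protocols, ribosomal RNA was removed and RNase R digested linear RNA before paired sequencing. Trimmomatic 0.36, FastQC and mm9 are named per the submitters' processing notes; the aligner and the caller of circRNAs were not given in the sources used here. Per the file headers, each circRNA has 3 values deposited by the authors: counts of all assigned reads, the same as RPM, and counts of junction reads. Junction reads were analysed as deposited counts; RPM served only to find library totals of 52636694 and 72271995 reads.

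Starts of circRNAs with a named host lay on GENCODE M21 exon starts in 81.2% and 84.6%, and at most 0.198% when shifted by 1 nt, so coordinates are GRCm38, counted from 1. Of 2494 hosts, 2377 are in that release. A missing entry was counted as 0 in sums.

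Named were the 10 most abundant members of each library, the 10 called members per direction with intervals farthest from 1, members with at least 20 reads in each library, hosts with at least 4, the 3 shortest, those at the span limit and up to 4 per gene list; some members that this rule names are not reported here. Members named for deposited count, repeats or position inside exons were chosen after their values were seen. Members and lists were chosen with earlier results of these data known. The call rule was tested on simulated data. Python 3.11.15, pandas 2.3.3, numpy 2.4.6, scipy 1.17.1 and matplotlib 3.10.9 were used.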

Additional observations from a re-analysis of the deposited data

Results flagged for a closer look

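Data outside the rule also held signal at spans of at most 500 nt. The library labelled non-ISC listed 935 entries with a named host and no junction read, of which 172 lay on exon ends of 1 transcript and 33 had junction reads in the library labelled ISC. The largest deposited count among them was 803144, in Rpph1. Entries with no host gene held 235 junction reads on 111 circRNAs labelled ISC and 295 on 175 labelled non-ISC. Entries with the name of a FANTOM transcript held 388 junction reads on 124 circRNAs and 267 on 72.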

How the results depend on the processing

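Of 70 alternative values, 33 moved by more than their limit and 2 turned direction: the ratio of circRNAs of over 500 to 1000 nt, 0.878, became 2.47 with library totals from RPM and 1.08 with median-ratio scaling. None of the alternatives turned the ratio of short circRNAs. Those for equal depth, exon ends only, that span bin and lists without their top host were chosen after seeing the data. The short ratio ran from 1.07 for exon ends only to 3.36 with library totals from RPM.
With a span of at most 400 nt, the share of reads was 4.29% labelled ISC and 3.37% labelled non-ISC, sharing 3.83%, calls 21 higher and 20 lower and exon ends 26.3%. With at most 600 nt, reads were 7.69% and 6.92% and exon ends 31.9%. With hostless and FANTOM entries, reads were 6.31% and 5.70%, exon ends 26.4% and 1-exon circles 14.7%. Without the most abundant member of each library, reads were 5.45% and 4.74%. With at least 3 junction reads, 624 and 310 members were left, 18.3% shared, 52.3% on exon ends, 28.7% of 1 exon, and junction reads equalled the count in 38.0% and 40.0%. Sharing on exon ends was 16.03%.
Calls were 84 higher and 22 lower with totals from RPM, 596 and 584 with the deposited count, 18 and 16 with at least 20 reads, 17 and 14 with reads halved, and 14 and 18 with reads in both libraries only. No paired analysis was possible because each group has 1 library. Depth limits single members: a member with no reads may still have up to 3, which is 0.192 and 0.393 in 10000 junction reads of each library.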
